A study of Rattus norvegicus with 4 samples.

Results

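Proliferating liver cells were chosen by their measured transcripts, as barcodes with at least 1 UMI (unique molecular identifier, 1 counted RNA molecule) of both Mki67 and Top2a. Barcodes were first kept if they had at least 200 genes, at least 500 UMIs and no more than 20% of UMIs from mitochondrial genes. By this rule 222 of 35901 kept cells were proliferating: 39 from naive liver, 83 from CS liver, 47 from NEVLP2 and 53 from NEVLPcty. Each of these cells was given the lineage whose gene had the most UMIs in it, among Cd3e (T cells), Ncr1 (NK cells and related innate lymphocytes), Cd79a (B cells), Clec4f (Kupffer cells), Flt3 (dendritic cells and progenitors) and Stab2 (sinusoidal endothelium). The levels of these 8 genes, and the difference between selected and other cells in cycle genes, follow from the selection and are given as a description only.

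The study compared ways of keeping a Lewis rat liver outside the body, with 1 single-cell RNA-seq library in each of 4 groups. Naive liver was untreated, CS liver was stored for 4 h at 4 °C, NEVLP2 liver was perfused for 4 h at 37 °C, and NEVLPcty liver had this perfusion plus the cytokines IL-10 and TGF-β. The digit in NEVLP2 is not explained, and the link between group names and perfusate rests on the design text. Both perfusates were built on William's E medium with red blood cells of Lewis rats, freed of leukocytes, and also contained insulin, hydrocortisone, papaverine, heparin and albumin of human origin. The number, age and sex of the animals and the way cells were isolated are not given in the sources used here. With 1 library a group, a difference between libraries cannot be told apart from a difference between animals or preparations, and no test between groups was possible. All intervals below are exact 95% intervals that cover counting error only.

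A dividing cell first licenses its replication origins with the MCM helicase and copies its DNA in S phase, then condenses chromosomes and separates them on a spindle in mitosis. D-type cyclins start this programme, E2F factors switch on the replication genes, and a later group of mitotic genes is held back through a promoter element called the CHR. Mki67 coats mitotic chromosomes and Top2a untangles replicated DNA, so their transcripts mark cells from S phase to mitosis. In adult liver most hepatocytes and endothelial cells rest, while resident NK cells, T cells, Kupffer cells and dendritic cells renew at low rates.

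Promoters of 6 genes are shown: the 2 selecting genes, 2 mitotic genes of which 1 holds a CHR-type element, and 2 replication genes with E2F-type sites. They are RefSeq sequences on build GRCr8, from 250 bases before to 50 bases after the gene's start, read 5′ to 3′ on the gene's strand. Capitals mark 3 motifs searched on both strands. The E2F-type site is TTCCCGC. In its place TTGGCGC was also accepted. The CCAAT box is spelled by its name, and the CHR-type element is TTTGAA. Mki67 lies on chr1:199952544-199952843, Top2a on chr10:84473044-84473343, Cdc20 on chr5:137255750-137256049, Ccnb1 on chr2:33655176-33655475 and Mcm3 on chr9:30733697-30733996, all on the minus strand. Mcm5 lies on chr19:13488563-13488862 on the plus strand.
Mki67: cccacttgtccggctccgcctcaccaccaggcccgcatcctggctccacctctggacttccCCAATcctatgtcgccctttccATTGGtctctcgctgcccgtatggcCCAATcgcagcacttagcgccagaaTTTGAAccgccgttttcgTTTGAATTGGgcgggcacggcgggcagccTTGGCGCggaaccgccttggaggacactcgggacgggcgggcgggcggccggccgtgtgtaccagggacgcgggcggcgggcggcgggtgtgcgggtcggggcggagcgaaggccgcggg
Top2a: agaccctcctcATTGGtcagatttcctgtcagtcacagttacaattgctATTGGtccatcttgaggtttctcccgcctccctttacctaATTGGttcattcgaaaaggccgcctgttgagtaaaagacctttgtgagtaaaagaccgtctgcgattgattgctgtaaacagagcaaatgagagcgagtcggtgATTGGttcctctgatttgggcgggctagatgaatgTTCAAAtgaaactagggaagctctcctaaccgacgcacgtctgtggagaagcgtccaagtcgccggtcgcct
Cdc20: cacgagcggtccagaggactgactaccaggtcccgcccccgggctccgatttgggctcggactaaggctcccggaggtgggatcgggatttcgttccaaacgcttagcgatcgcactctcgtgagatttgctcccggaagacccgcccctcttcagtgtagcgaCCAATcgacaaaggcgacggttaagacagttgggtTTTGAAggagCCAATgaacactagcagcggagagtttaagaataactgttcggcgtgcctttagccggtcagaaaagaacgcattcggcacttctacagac
Ccnb1: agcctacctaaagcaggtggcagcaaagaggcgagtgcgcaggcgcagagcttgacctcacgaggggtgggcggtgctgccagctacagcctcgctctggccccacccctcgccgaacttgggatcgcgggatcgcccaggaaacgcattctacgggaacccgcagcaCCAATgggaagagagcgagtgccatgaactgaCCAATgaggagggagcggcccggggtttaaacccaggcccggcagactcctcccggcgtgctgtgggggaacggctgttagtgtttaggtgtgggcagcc
Mcm5: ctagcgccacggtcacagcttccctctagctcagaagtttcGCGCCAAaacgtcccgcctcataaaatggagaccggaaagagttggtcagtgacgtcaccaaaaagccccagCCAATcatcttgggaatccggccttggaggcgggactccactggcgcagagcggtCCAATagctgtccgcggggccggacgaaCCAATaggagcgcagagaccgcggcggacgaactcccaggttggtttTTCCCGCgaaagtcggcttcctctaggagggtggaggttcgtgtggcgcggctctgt
Mcm3: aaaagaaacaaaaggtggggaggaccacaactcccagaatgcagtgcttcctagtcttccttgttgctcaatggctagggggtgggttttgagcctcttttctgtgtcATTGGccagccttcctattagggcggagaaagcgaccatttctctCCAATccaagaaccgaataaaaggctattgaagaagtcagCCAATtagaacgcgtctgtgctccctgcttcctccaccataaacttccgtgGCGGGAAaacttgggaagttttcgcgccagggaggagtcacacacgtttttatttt

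The Mki67 promoter held 1 E2F-type site, 4 CCAAT boxes and 2 CHR-type elements, of which the second CHR-type element and the last CCAAT box share 1 base. The Top2a promoter held 4 CCAAT boxes and 1 CHR-type element. Cdc20, the activator of the anaphase-promoting complex, had 2 CCAAT boxes and 1 CHR-type element, while Ccnb1, the mitotic cyclin, had 2 CCAAT boxes and no match to the CHR-type letters in this window. The helicase subunits Mcm5 and Mcm3 had 2 and 1 E2F-type sites, 3 CCAAT boxes each and no CHR-type match. Promoters were found for 39 of 47 genes of the replication lists (licensing and DNA synthesis) and for 57 of 65 genes of the mitotic lists (kinases, kinesins and kinetochore). An E2F-type site stood in 23 of 39 replication promoters (59.0%) and 11 of 57 mitotic promoters (19.3%), against 6.67% of 27457 rat promoters of the same length. A CHR-type element stood in 4 of 39 replication promoters (10.3%) and 37 of 57 mitotic promoters (64.9%), against 18.1% of all promoters. CCAAT boxes stood in 66.7% of replication promoters and 64.9% of mitotic promoters, against 37.7% of all. A match is a string of letters in a window, not a shown binding site.

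The share of proliferating cells was highest in naive liver. They made up 1.18% of 3301 kept cells there (0.841–1.61%) and 0.769% of 10798 kept cells of CS (0.613–0.952%). The perfused libraries had 0.461% of 10186 (NEVLP2, 0.339–0.613%) and 0.456% of 11616 (NEVLPcty, 0.342–0.596%). The intervals of naive and CS overlapped, those of CS and NEVLP2 touched, and both perfused libraries lay below naive. The libraries also differed in make-up: Cd3e cells were 10.1%, 1.69%, 2.25% and 1.05% of kept cells, Ncr1 cells 5.30%, 2.66%, 1.95% and 1.71%, and Flt3 cells 4.79%, 2.77%, 2.14% and 1.23%. These 3 groups had the highest rates of proliferating cells and were most frequent in naive, and their part in the overall share was not tested. The order of libraries was the same at matched depth: when every cell was thinned to 2000 UMIs, leaving out 1089, 3032, 3570 and 2104 shallower cells, the shares were 0.949%, 0.695%, 0.287% and 0.231% in the same order. Proliferating cells were deeper than the rest, with medians of 22694, 11185, 25549 and 10376 UMIs against 3915, 4651, 3722 and 5347 in all kept cells. Hepatocyte-rich barcodes, those with at least 10% of UMIs from a list of hepatocyte genes, served as background for free RNA. Both genes were found in 3 of 1478 such barcodes of naive (0.203%), which count among the 39 cells, and in 0 of 1601, 0 of 2447 and 0 of 1224 of CS, NEVLP2 and NEVLPcty. The median depths of these barcodes were 1883, 1622, 1493 and 1747 UMIs.

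**Figure D1:**
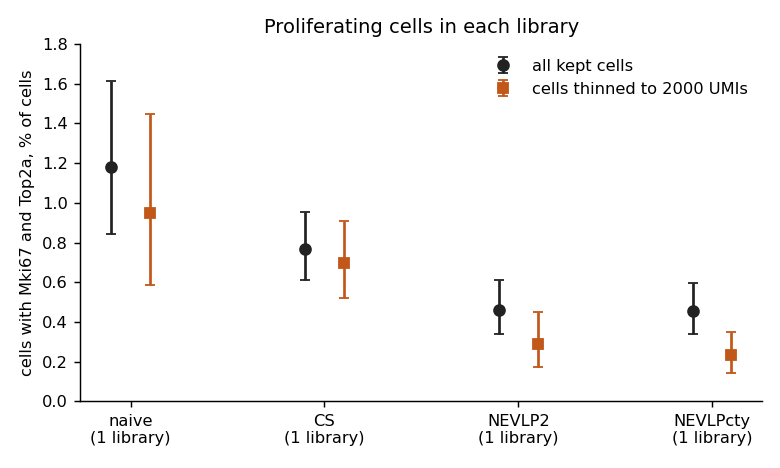
Share of cells with at least 1 UMI of both Mki67 and Top2a in each library (percent, 1 library per group), for all kept cells (circles) and for cells thinned to 2000 UMIs (squares), with exact 95% intervals for counting error. Naive is highest at 1.18% and both perfused libraries are lowest, at 0.461% and 0.456%.

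The 2 selecting genes showed how wide the group is. Mki67 had a median of 14, 13, 20 and 13 UMIs per proliferating cell in naive, CS, NEVLP2 and NEVLPcty, and reached 124 UMIs in 1 cell. Top2a had medians of 8, 7, 7 and 3 UMIs. At the edge of the rule, 14 cells had exactly 1 UMI of each gene, with 4645 CPM (UMI counts scaled to the same total in every group of cells) over all cycle lists, while 176 cells with at least 2 UMIs of each had 15749 CPM. Just outside it, 784 cells with Mki67 only had 1929 CPM and 124 cells with Top2a only had 1990 CPM, and cells with neither had 1028 CPM. Mki67, with or without Top2a, was found in 110, 273, 267 and 356 cells, which is 3.33%, 2.53%, 2.62% and 3.06% of kept cells. Of these cells 35.5%, 30.4%, 17.6% and 14.9% also had Top2a. By Mki67 without the second gene the perfused libraries did not lie below CS, so the order of the shares depends on Top2a.

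Cells assigned by Ncr1, Flt3 or Cd3e were more often proliferating than those assigned by Clec4f or Stab2. Of Ncr1 cells 5.70% were proliferating (49 of 860, 4.24–7.46%), of Flt3 cells 3.30% (27 of 818) and of Cd3e cells 2.88% (25 of 869). Of Clec4f cells 0.476% were proliferating (23 of 4830) and of Stab2 cells 0.338% (28 of 8292, 0.224–0.488%). The intervals of the Ncr1, Flt3 and Cd3e groups did not overlap those of Clec4f and Stab2 cells, in a count that pools 4 libraries of different make-up. At 2000 UMIs per cell the rates were 5.37%, 1.49%, 2.06%, 0.352% and 0.209% in the same order of lineages. Cd79a, which the files list as Cd79al by a RefSeq synonym, had UMIs in 4 kept cells only, and no proliferating cell was assigned to it. A further 7 cells were tied and 63 had none of the 6 genes.

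Within Ncr1 cells the rates of naive and CS were above those of the perfused libraries. Proliferating cells were 14 of 175 Ncr1 cells of naive (8.0%, 4.44–13.1%) and 21 of 287 of CS (7.32%, 4.59–11.0%). They were 7 of 199 in each perfused library (3.52%, 1.43–7.11%). All 4 intervals overlapped, and the difference itself was not tested. After thinning the rates were 5.92%, 8.22%, 2.61% and 3.59%, so that CS rather than naive was highest. Cd3e cells had rates of 2.09%, 3.28%, 3.93% and 2.46% and Flt3 cells 4.43%, 2.34%, 4.13% and 2.80%, each with intervals that all overlapped. At 2000 UMIs per cell they were 0.926%, 3.49%, 3.29% and 0.855% for Cd3e and 2.55%, 1.70%, 0.926% and 0.709% for Flt3, so several moved by more than 2 times.

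**Figure D2:**
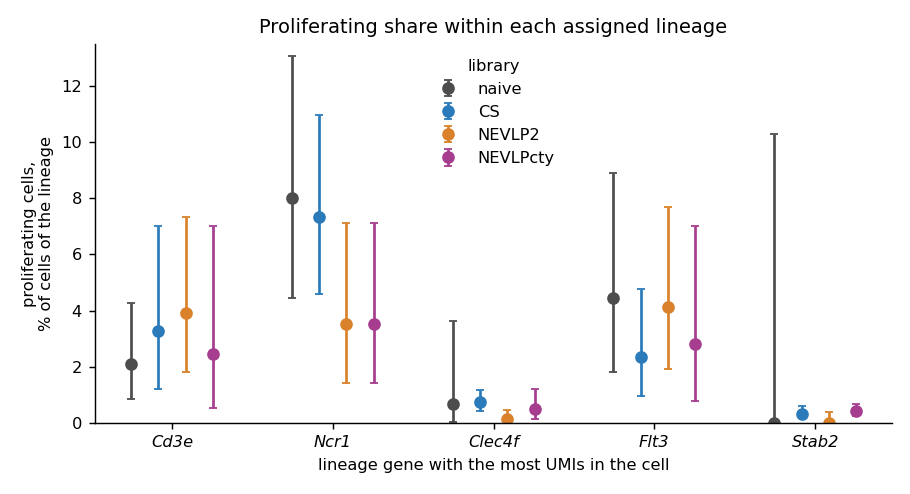
Proliferating cells as a percent of all kept cells assigned to the same lineage gene, by library, with exact 95% intervals for counting error. Ncr1 cells reach 8.0% in naive and 3.52% in both perfused libraries, while the rates of Clec4f and Stab2 cells are under 1% in every library. Their upper limits in naive reach 3.63% and 10.3%.

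Proliferating cells assigned by Stab2 were found in CS and NEVLPcty. By the marker lists 2 NEVLP2 cells were also closest to sinusoidal endothelium, 1 of them assigned by Clec4f and 1 with no lineage gene. Stab2 cells with both genes numbered 10 of 3097 in CS (0.323%, 0.155–0.593%) and 18 of 4210 in NEVLPcty (0.428%, 0.254–0.675%). At 2000 UMIs per cell these rates were 0.293% and 0.198%, in the opposite order. None was found among 951 Stab2 cells in NEVLP2, which allows a share of up to 0.315% at 3 cells of the total (0.387% by the exact interval), or among 34 in naive, which allows up to 8.82% (10.3%). Both limits for NEVLP2 lie inside the intervals of CS and NEVLPcty, so a difference was not detectable at this depth, and naive had too few Stab2 cells to compare. Clec4f cells gave 1 of 151, 16 of 2193, 2 of 1643 and 4 of 843 in naive, CS, NEVLP2 and NEVLPcty. The make-up of the proliferating cells thus varied: Ncr1 cells were 35.9% of them in naive and 13.2% in NEVLPcty, where Stab2 cells made up 34.0%. The share of Stab2 cells among all kept cells also varied, at 1.03%, 28.7%, 9.34% and 36.2%, and the part of cell recovery in this was not tested.

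The labels were checked against lists of marker genes. The list of each lineage includes the gene that assigned the cell, so 1 of its genes was present by construction. That gene also counts in the share of each list detected. At least 3 genes of the NK list were found in 49 of 49 Ncr1 cells, with the receptor Klrb1a and the granule genes Nkg7 and Prf1 in all 49. At least 3 genes of the sinusoidal list were found in 28 of 28 Stab2 cells, with the hyaluronan receptor Lyve1 and the VEGF receptor Kdr in all 28, although the lectin Clec4g was found in 1. The vascular endothelial list also passed in these 28 cells, and the T-cell list in 41 of the 49 Ncr1 cells, so 3 genes of a list do not define a type. The T-cell list passed in 24 of 25 Cd3e cells, with the kinase Lck in all 25, and the dendritic list in 25 of 27 Flt3 cells. The monocyte and macrophage list passed in 24 of the same 27, and by the share of each list detected 14 were closest to monocytes or macrophages and 9 to dendritic cells, so they are called Flt3 cells and not dendritic cells. Conventional type 1 dendritic genes were found in about as many as not: the chemokine receptor Xcr1 in 12 and Clec9a in 13 of 27. Clec4f cells were mixed. The Kupffer list passed in 19 of 23, with the complement gene C1qa in 17 and Cd5l in 9, but the sinusoidal list passed in 17 of the same 23, and by the share of each list detected 9 were closest to sinusoidal endothelium and 10 to Kupffer cells. They are therefore called Clec4f cells here and not Kupffer cells. At least 3 hepatocyte genes were found in 34 of 49 Ncr1 and 27 of 28 Stab2 cells, and the part of free RNA or of doublets in these values was not tested.

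The 63 cells without a lineage gene were not a single type. By the share of each list detected, 18 were closest to sinusoidal endothelium, 15 to monocytes or macrophages and 13 to NK cells. Hepatocytes were not scored by share under this rule: a cell with at least 10% of UMIs from hepatocyte genes was called 1, and no other cell could be. The 3 cells so called were in naive and had 16.9%, 20.1% and 12.4% of UMIs from hepatocyte genes. By number of list genes detected, hepatocyte was the call in 9, 5, 16 and 6 of all proliferating cells of naive, CS, NEVLP2 and NEVLPcty. At least 2 lineage genes were found in 3, 17, 2 and 2 proliferating cells of naive, CS, NEVLP2 and NEVLPcty, which is 7.69%, 20.5%, 4.26% and 3.77%, against 1.06%, 10.9%, 3.02% and 5.52% of all kept cells. Removing the barcodes with the highest doublet scores took 28 of 83 proliferating cells from CS and 3, 10 and 3 from the others. The number removed was set by library size: 104 of 3301, 968 of 10798, 868 of 10186 and 1093 of 11616 kept cells. Scrublet, which gave the scores, itself called 0, 1, 0 and 0 proliferating cells doublets in naive, CS, NEVLP2 and NEVLPcty. The CS values are thus those most touched by barcodes with high scores or with at least 2 lineage genes.

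Most proliferating cells held more mitotic than replication transcripts. The cells were selected on Mki67 and Top2a, and the mitotic lists hold more genes than the replication lists. A larger mitotic sum therefore does not place a cell in a phase. Replication lists exceeded mitotic lists in 33 of 222 cells, namely 11 of 39, 13 of 83, 5 of 47 and 4 of 53 in the order naive, CS, NEVLP2, NEVLPcty. Summed over cells, the replication lists reached 5247, 4873, 2895 and 4225 CPM and the mitotic lists 10376, 13882, 7211 and 8714 CPM. NEVLP2 was lowest for both, naive was highest for replication and CS for mitosis. As a share of both, replication UMIs were 33.6% (32.9–34.3%), 26.0% (25.4–26.5%), 28.6% and 32.7%, so that CS was lowest and naive and NEVLPcty overlapped. By lineage the share was 21.5% in Clec4f cells, where 0 of 23 cells had more replication than mitotic UMIs, 25.4% in Flt3, 30.5% in Ncr1, 33.1% in Stab2 and 33.3% in Cd3e cells. These sums weigh cells by their depth: the median share per cell was 22.6%, 33.0%, 37.0%, 31.1% and 32.6% in the same order, so that Clec4f cells stayed lowest and the order of the others changed. Both orders pool libraries, and 16 of the 23 Clec4f cells came from CS. Within CS, Flt3 cells had 19.0% summed and a median of 15.5%, below the 19.9% and 17.9% of Clec4f cells. The summed share in NEVLP2 was 18.3% in Ncr1 and 21.1% in Clec4f cells, while in NEVLPcty Clec4f cells were lowest at 21.1%. The summed share in Ncr1 cells was 28.7% (27.3–30.0%), 35.5% (33.9–37.1%), 18.3% (16.4–20.2%) and 41.6% (38.4–44.8%) in naive, CS, NEVLP2 and NEVLPcty. The median share per Ncr1 cell was 30.8%, 41.7%, 29.6% and 43.5%, so that NEVLP2 lay close to naive. In NEVLP2, 1 of the 7 Ncr1 cells held 557 of their 1336 mitotic UMIs.

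**Figure D3:**
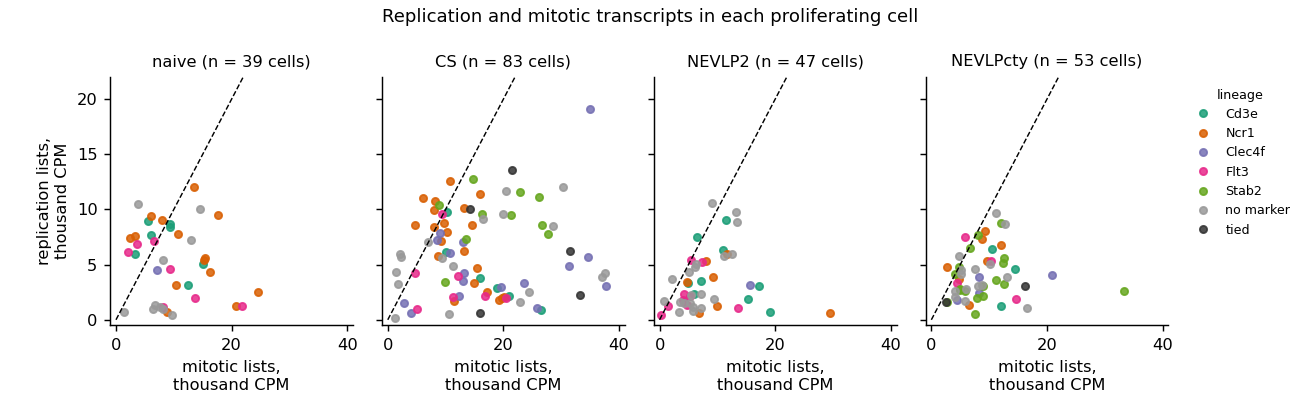
Summed level of the replication lists (y axis) against that of the mitotic lists (x axis) in each proliferating cell, both in kilo-CPM, 1 panel per library and 1 colour per lineage. Points above the dashed line of equal levels number 11 for naive, 13 for CS, 5 for NEVLP2 and 4 for NEVLPcty.

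Some single genes of replication are given first. Pcna, the clamp that holds DNA polymerase, stood at 513, 391, 253 and 466 CPM in naive, CS, NEVLP2 and NEVLPcty. The helicase subunit Mcm3 stood at 189, 132, 79.4 and 160 CPM and Mcm5 at 123, 123, 83.6 and 128 CPM. Dut, which clears dUTP, had 561, 411, 183 and 213 CPM. All 4 were lowest in NEVLP2, and Dut was low in both perfused libraries. Rrm2, a subunit of ribonucleotide reductase, went the other way, at 50.8, 60.1, 90.3 and 56.0 CPM. Of the mitotic genes, the kinase Cdk1 had 253, 466, 156 and 306 CPM and the ubiquitin-conjugating enzyme Ube2c 518, 914, 489 and 389 CPM, both highest in CS. Ccnb1 was highest in NEVLP2, at 128, 165, 203 and 119 CPM. Hmgb2, an abundant chromatin protein of dividing cells, ran from 5048 CPM in naive through 3112 and 2345 to 1955 CPM in NEVLPcty. In cells outside the selection Cdk1 had between 1.05 and 4.59 CPM and Hmgb2 between 99.9 and 305 CPM.

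The D-type cyclins had different levels in the lineages. Ccnd1 was not found in any of the 49 Ncr1 cells, and it stood at 238 CPM in Stab2 cells (185–302), 184 CPM in Clec4f cells and 122 CPM in Flt3 cells. Ccnd3 ran the opposite way, at 355 CPM in Ncr1 cells (309–406), 206 CPM in Cd3e cells, 89.8 CPM in Stab2 cells and 32.8 CPM in Clec4f cells (17.5–56.2). These sums pool libraries of different make-up, and Stab2 cells come from CS and NEVLPcty only. By library Ccnd1 was not even: in Flt3 cells it had 204, 182, 35.8 and 36.8 CPM, and 72 of the 73 UMIs in Clec4f cells came from CS. Ccne2, an E-type cyclin of the S-phase entry, was at 176 CPM in Stab2 cells (131–232) and between 10.1 and 26.4 CPM in the 4 other groups. Cenpf, a kinetochore protein of late cycle, was lowest in Stab2 cells, at 180 CPM, against 504 to 620 CPM in the other 4 groups. Hmgb2 was highest in Cd3e cells at 5126 CPM and lowest in Stab2 cells at 1458 CPM.

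**Figure D4:**
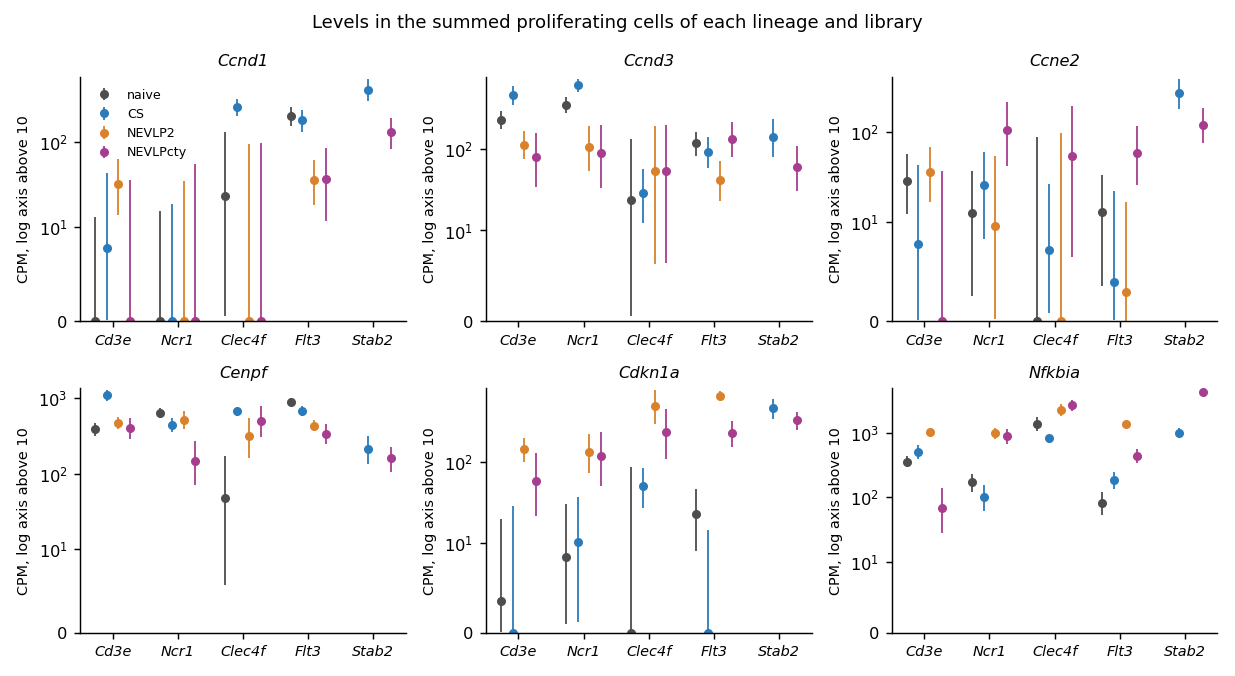
Levels of 6 genes in the summed proliferating cells of each lineage and library, in CPM on an axis that is linear to 10 and logarithmic above, with exact 95% intervals for counting error. Ccnd1 is at 0 in Ncr1 cells of all 4 libraries, Ccnd3 is highest in Ncr1 and Cd3e cells of naive and CS, and no point is drawn where a library has no cell of the lineage.

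Ccnd3 was lower in the perfused libraries inside both lymphoid groups. In Ncr1 cells it had 345, 592, 106 and 89.5 CPM in naive, CS, NEVLP2 and NEVLPcty, and in Cd3e cells 225, 449, 112 and 78.8 CPM. In Ncr1 cells the interval of NEVLP2 (52.7–189) lay below that of naive (274–428), while Flt3 cells had 117, 91.1, 41.8 and 132 CPM and were not lower in NEVLPcty. The lymphoid values of the perfused libraries lie around the 89.8 CPM of Stab2 cells, a value that pools CS and NEVLPcty. NEVLP2 had no proliferating Stab2 cell, so the lineages could not be compared with Stab2 cells within that library. The lymphoid values were above those of Flt3 cells in NEVLP2 and below them in NEVLPcty. Cdkn1a, which encodes the CDK inhibitor p21, was higher in the perfused libraries. Over all proliferating cells it had 9.40, 81.7, 420 and 261 CPM, and it was found in 5 of 39, 29 of 83, 36 of 47 and 43 of 53 cells. In Flt3 cells it had 22.7, 0, 666 and 228 CPM, in Ncr1 cells 8.41, 10.2, 134 and 119 CPM, and in Cd3e cells 3.57, 0, 144 and 59.1 CPM. Each of these 3 groups had its highest levels in the perfused libraries. Stab2 cells had 465 CPM in CS and 330 CPM in NEVLPcty, so p21 transcripts were also present in endothelial cells without perfusion. Cells outside the selection had 25, 79.5, 359 and 276 CPM, in the same order of libraries.

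Cold storage and naive liver were compared over 9542 genes with at least 10 UMIs in the 2 libraries together, where a gene is called at least 2-fold higher or lower by its CPM ratio, without a test. Of these, 14.9% were called higher in CS and 6.34% lower. Of the lists, 12 of 15 immediate early genes and 16 of 19 interferon response genes were higher, none was lower, and their median log2 ratios were 2.06 and 2.19 against 0.09 for all measured genes. With Cd3e, Ncr1, Flt3 and unmarked cells weighted alike the medians were 1.22 and 1.45. None of 17 replication licensing genes and 1 of 19 mitotic kinase genes was called.

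The higher early response genes of CS were not shared by all lineages. Fos, an AP-1 subunit, had 473, 2517, 349 and 709 CPM in naive, CS, NEVLP2 and NEVLPcty. Its level in CS was 10398 CPM in Stab2 cells, 2321 CPM in Clec4f cells and 4158 CPM in cells without a lineage gene. In Ncr1 cells it was 206 CPM in naive and 347 CPM in CS, in Flt3 cells 1098 and 345 CPM, and in Cd3e cells 114 and 0 CPM. Fos was thus high in endothelial and Clec4f cells of CS, and Flt3 and Cd3e cells went the other way. Cells outside the selection had 690, 4256, 514 and 895 CPM, again highest in CS. Isg15, an interferon-induced modifier, had 24.4, 276, 222 and 138 CPM, with 50.4 CPM in naive and 148 CPM in CS in Ncr1 cells and 987 CPM in Stab2 cells of CS.

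The 12 genes higher in CS than in naive, ranked by the lower limit of the ratio, were led by Bmp2 and Eng. Bmp2, a bone morphogenetic protein secreted by sinusoidal endothelium, had 595 UMIs in CS and 0 in naive. With the 0 set to a floor of 3 UMIs it was 162-fold higher, with a lower limit of 132. Eng, an endothelial TGF-β co-receptor, had 643 and 2 UMIs, a ratio of 263 (72.6–2180). Tinagl1, Cyr61, Lrg1 and Cavin2 had 0 UMIs in naive and were 73.7-, 71.6-, 57.4- and 56.3-fold higher by the same floor. Their lower limits were 59.6, 57.8, 46.2 and 45.3. Naive had no proliferating Stab2 cell and CS had 10. By the share of each marker list detected, 28 CS cells were closest to sinusoidal endothelium. Bmp2 was found in 50 and Eng in 44 of the CS cells. The part of this make-up in the ratios was not tested. Of the lower genes, the chemokine Xcl1 had 430, 70.9, 511 and 79.3 CPM in naive, CS, NEVLP2 and NEVLPcty and was 6.06-fold lower in CS (4.84–7.67). The plasma protein gene Apoh, a hepatocyte product, was 5.99-fold lower in CS, and 106 of its 108 naive UMIs lay in 3 cells without a lineage gene.

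Ncr1 cells could be compared within their lineage, 21 in CS against 14 in naive, over 5231 genes of which 8.16% were called higher and 9.12% lower. The immediate early list was not shifted as a whole there, with 5 of 13 genes higher, 2 lower and a median log2 ratio of 0.09. Nr4a1, a nuclear receptor induced by stimulation, was 13.9-fold higher in CS (5.60–44.3) and was found in 17 CS and 4 naive cells. The linker histones Hist1h1e, Hist1h1c and Hist1h1d were 3.56-fold (2.97–4.29), 3.19-fold and 3.14-fold higher. Hist1h1e stood at 664, 2364, 835 and 1790 CPM in Ncr1 cells of naive, CS, NEVLP2 and NEVLPcty, so that CS was highest and naive lowest. The chemokines Xcl1 and Ccl3 were 3.90-fold (3.05–5.03) and 3.52-fold (2.91–4.28) lower in CS. Aurka, a spindle kinase, had 20 UMIs in naive and 1 in CS, a ratio of 16.5 (2.63–682). Replication licensing genes had a median log2 ratio of 0.57, with 2 of 16 called higher and none lower.

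Warm perfusion was compared with naive liver over 8834 genes, of which 10.1% were called higher in NEVLP2 and 24.8% lower. The median of all genes was shifted by -0.34, and centred on it 1356 genes were higher and 1485 lower, against 892 and 2189 before. Replication genes were low: 8 of 16 licensing genes and 15 of 30 DNA synthesis genes were called lower, none was higher, and their medians were -1.02 and -0.95. Mitotic kinases (3 of 19 lower, median -0.32) lay at the shift of all genes and kinesins and spindle genes (5 of 23 lower, median -0.73) below it. Cdca7, a chromatin protein active in S phase, had 96.8, 50.1, 8.44 and 30.1 CPM in naive, CS, NEVLP2 and NEVLPcty and was 11.5-fold lower in NEVLP2 (5.99–24.6). Uhrf1, which maintains DNA methylation at the fork, was 3.71-fold lower (2.73–5.13) and Dut 3.06-fold lower (2.62–3.6).

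Signalling lists were high in the same cells. Of NF-κB targets 9 of 14 were higher and 1 lower (median 1.74), of IL-10 and STAT3 response genes 7 of 11 were higher (median 1.64), and of interferon genes 11 of 18 were higher and 2 lower (median 1.56). With lineages weighted alike these medians were 1.86, 1.67 and 1.83. Birc3, an inhibitor of apoptosis induced by NF-κB, had 11.3, 16.9, 236 and 163 CPM in naive, CS, NEVLP2 and NEVLPcty. It was at 224 CPM in Cd3e, 355 CPM in Ncr1 and 227 CPM in Flt3 cells of NEVLP2, against 21.4, 8.41 and 3.24 CPM in naive, so it was higher in each of these lineages. The IκBα gene Nfkbia had 305, 787, 1235 and 1995 CPM, and cells outside the selection had 581, 809, 3381 and 3910 CPM. Bcl3, an atypical IκB protein, was 13.8-fold higher in NEVLP2 than in naive (7.90–26.4).

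Among the 12 highest genes by the rule, Cxcl10, an interferon-induced chemokine, had 704 UMIs in NEVLP2 and 2 in naive, a ratio of 316 (87.2–2615). Of its NEVLP2 UMIs 41.6% lay in 1 cell. Hmox1, heme oxygenase, had 10.3, 116, 1215 and 5008 CPM in naive, CS, NEVLP2 and NEVLPcty and was 117-fold higher in NEVLP2 (65.4–236). It was lowest in the lymphoid cells, at 86.3 CPM in Ncr1 and 152 CPM in Cd3e cells of NEVLP2, against 1179 CPM in Flt3 cells. Ccl2, a monocyte chemokine, was 66.4-fold (38.6–125), Cdkn1a 44.7-fold (24.1–93.8) and the costimulatory receptor Cd40 40.5-fold (23.0–78.8) higher. Inside the Ncr1 cells, Il2ra, the high-affinity IL-2 receptor chain, had 12.6, 30.6, 345 and 254 CPM. Gzmb, granzyme B, had 605, 986, 5123 and 59.7 CPM in the same cells, so that NEVLP2 was highest and NEVLPcty lowest. These Ncr1 levels rest on 7 cells in each perfused library.

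Warm perfusion was also set against cold storage, over 9359 genes of which 6.7% were called higher in NEVLP2 and 31.1% lower. The median was shifted by -0.46, and centred counts were 1237 higher and 1830 lower against 627 and 2915. NEVLP2 is shared by the comparisons with naive and with CS. Of NF-κB targets 9 of 14 were higher and none lower (median 1.69), and of IL-10 and STAT3 genes 7 of 11 higher and 1 lower (median 1.71). Of kinesins and spindle genes 14 of 23 were lower (median -1.12) and of kinetochore genes 10 of 22 (median -0.95), with none higher in either. Immediate early genes were lower in 8 of 15 and interferon genes in 9 of 19, with medians of -1.06 and -0.98, and the interferon median was 0.13 with lineages weighted alike. Ccl2 was 42.1-fold (28.4–65.4), the checkpoint ligand Cd274 20.8-fold (11.1–44.1), the costimulatory ligand Cd80 20.6-fold (9.19–57.4) and the apoptosis gene Pmaip1 15.7-fold (10.1–25.7) higher in NEVLP2. Relb, an NF-κB subunit with 0 UMIs in CS, was 12.1-fold higher with the 0 set to the floor of 3 UMIs. Its lower limit was 9.27. Egr1, an early response factor, was 40.5-fold lower (25.1–69.9), and the sinusoidal genes Lyve1 and Gpr182 were 18.1-fold and 40.2-fold (15.4–149) lower in NEVLP2, which had no proliferating Stab2 cell.

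**Figure D5:**
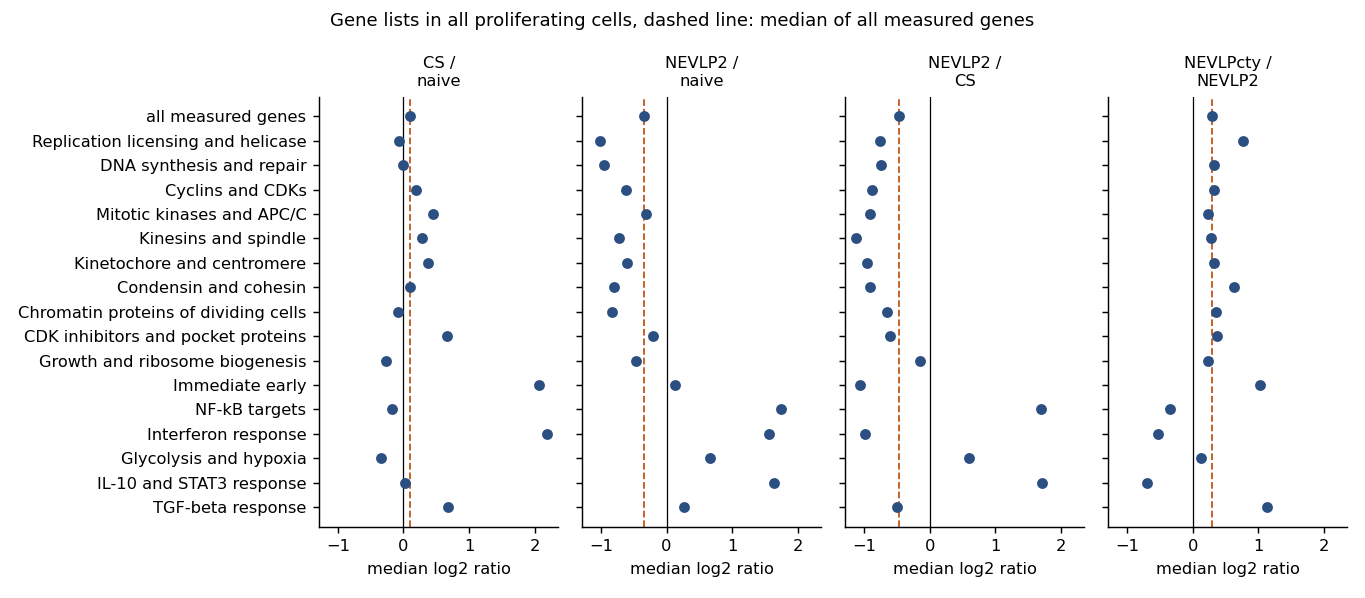
Median log2 ratio of each gene list in 4 comparisons between libraries, over all proliferating cells; the dashed line is the median of all measured genes. Immediate early and interferon lists lie near 2 in CS against naive, replication lists lie near -1 and NF-κB targets near 1.74 in NEVLP2 against naive, and the TGF-β response list lies at 1.14 in NEVLPcty against NEVLP2.

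NEVLPcty and NEVLP2 differ by label in the IL-10 and TGF-β of the perfusate, and were compared over 8562 genes of which 23.3% were called higher in NEVLPcty and 6.45% lower. The median was shifted by 0.29, and centred counts were 1466 higher and 871 lower against 1995 and 552. Of 13 TGF-β response genes 7 were higher and none lower (median 1.14, and 1.41 with Ncr1 and unmarked cells weighted alike). The inhibitory SMAD gene Smad7 had 42.3, 87.0, 87.8 and 254 CPM in naive, CS, NEVLP2 and NEVLPcty and was 2.90-fold higher in NEVLPcty (2.27–3.72). Pmepa1, a TGF-β feedback gene, had 3.76, 26.2, 11.8 and 102 CPM, and in Ncr1 cells it had 0 UMIs in each of the first 3 libraries and 14 UMIs in 6 of 7 cells in NEVLPcty. In Ncr1 cells Smad7 had 25.2, 51.1, 95.9 and 298 CPM, so both feedback genes were highest in NEVLPcty also inside this lineage.

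The IL-10 and STAT3 list was not higher in NEVLPcty: 2 of 11 genes were higher and 3 lower, with a median of -0.70. Il4r was 3.39-fold higher (2.60–4.44), while Pim1, a kinase induced by cytokines, was 3.64-fold lower (1.85–7.99). Replication licensing genes had a median of 0.77, against 0.29 for all measured genes. Of them 3 of 16 were called higher, a share below the 23.3% of all measured genes, and none lower. Mcm3 was 2.01-fold (1.52–2.67) and Pcna 1.84-fold (1.57–2.16) higher. Effector lymphocyte genes were lower in 6 of 15 and higher in none (median -0.60). With Ncr1 and unmarked cells weighted alike the median was -0.46, and Cd3e and Ncr1 cells numbered 9 and 7 in NEVLP2 against 3 and 7 in NEVLPcty. Xcl1 was 6.44-fold lower (4.92–8.59), and 1 of the 12 NEVLP2 cells with the gene held 47.9% of its UMIs there. Ranked by the lower limit of the ratio, the first of the higher genes was the fatty acid binding protein Fabp4 at 124-fold (62.6–289), followed among others by Egfl7 at 71.9-fold and the sinusoidal gene Lyve1 at 41.5-fold, and NEVLPcty held 18 proliferating Stab2 cells against 0. Slpi, a secreted protease inhibitor, was 6.73-fold lower (6.24–7.26) and the lectin Clec10a 8.97-fold lower (7.11–11.5). Of the Slpi UMIs in NEVLPcty 74.6% lay in 1 cell. Clec10a, a gene of the dendritic list, was found in 5 NEVLPcty and 15 NEVLP2 cells, and Flt3 cells numbered 4 and 9. The part of this make-up in the ratio was not tested.

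Stab2 cells allowed a comparison inside the endothelium, 18 cells in NEVLPcty against 10 in CS, over 4821 genes of which 19.8% were called higher and 21.7% lower. Cycle genes were lower in NEVLPcty: 21 of 26 DNA synthesis genes, 15 of 21 kinetochore genes and 15 of 20 kinesin and spindle genes were called lower, with medians of -1.37, -1.5 and -1.24, and 1, 1 and 0 were higher. The NEVLPcty cells also lay nearer the edge of the selection: 16 of 18 had 1 to 3 Top2a UMIs, against 3 of 10 with 2 or 3 in CS, and the part of this in the counts was not tested. Both list sums were lower, at 8899 CPM in CS and 3905 CPM in NEVLPcty for replication and at 18218 and 7750 CPM for mitosis, while replication UMIs were 32.8% of both in CS and 33.5% in NEVLPcty. Pcna had 1238 CPM in CS (1037–1467) and 610 CPM in NEVLPcty (502–734). Ccnd1 had 419 and 132 CPM. Of NF-κB targets 8 of 9 were higher and none lower, with a median of 2.70. The median depth of these cells was 12255 UMIs in CS and 9156 in NEVLPcty.

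Early response and interferon genes were also lower in the NEVLPcty endothelial cells, in 11 of 13 and 12 of 14 genes. Fos was 13.0-fold lower (10.9–15.5), Atf3, a stress-induced transcription factor, 20.7-fold lower (12.4–36.9), and Btg2, an antiproliferative gene, 9.21-fold lower (7.42–11.5). Hmox1 was 151-fold higher (76.5–350), at 11244 CPM against 74.5 CPM. Ccl2 was 45.5-fold (21.9–114) and the hyaluronidase Cemip2 16.8-fold (11.8–24.9) higher. Glycolysis genes were higher in 7 of 12 and lower in none, with a median of 1.22. This comparison spans temperature, perfusion and cytokines together, which cannot be told apart.

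Of the cold-inducible genes, Cirbp was low in both perfused libraries. Cirbp, an RNA-binding protein induced by mild cold, had 55.5, 63.2, 11.0 and 15.0 CPM in naive, CS, NEVLP2 and NEVLPcty, and 75.6, 75.4, 11.8 and 12.7 CPM in cells outside the selection. It was thus lower in both perfused libraries and alike in naive and CS. Rbm3, its relative, had 852, 907, 1254 and 873 CPM and did not follow Cirbp.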

How the data were processed

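Single-cell RNA-seq was measured in 1 library of each of 4 groups. The deposited matrices hold UMI counts per gene and barcode; they were made by the authors with cellranger 6.0.0 per the file headers, while the submitters' processing notes name Cell Ranger 2.1.1. No label or file header read for this work names the genome build. Library totals were 25609611, 67431270, 65893218 and 72271060 UMIs (naive, CS, NEVLP2, NEVLPcty).

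Counts were read with Python 3.11.15, numpy 2.4.6, pandas 2.3.3, scipy 1.17.1 and scanpy 1.11.5, with 22118 gene symbols. The proliferating cells and the 39 gene lists were chosen with earlier results of these data known. UMIs were summed over the chosen cells of a library or lineage and scaled to CPM. Shares have exact Clopper-Pearson intervals, CPM exact Poisson intervals and ratios conditional binomial intervals, all at 95%. They cover counting error only and are narrower than the variation between cells. With 1 library a group nothing was tested. Ratios were formed for genes with at least 10 UMIs in both libraries together, and a gene at 0 was set to a floor of 3 UMIs per summed group. Named genes were the 12 highest and 12 lowest in each comparison by the interval limit nearest 1, found in at least 5 cells of the higher library, with at most 50% of its counts in 1 cell, and any gene of the lists. Doublets were not removed; Scrublet called 5, 339, 205 and 199 kept cells. Between 7 and 32 kept barcodes were shared by any pair of libraries, and none between proliferating cells. The calculations were tested on simulated data. Alternatives varied the selection, depth, filters, scaling and weighting.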

Additional observations from a re-analysis of the deposited data

How the results depend on the processing

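Of the main results 197 values under alternatives stayed within their limits and 47 moved. With Mki67 or Top2a in place of both, the shares were 4.24%, 2.89%, 2.93% and 3.27% (naive, CS, NEVLP2, NEVLPcty). Without hepatocyte-rich barcodes naive was 1.97%, without the highest Scrublet scores CS was 0.560%, at 2000 UMIs NEVLP2 and NEVLPcty were 0.287% and 0.231%, and with at least 2 UMIs of each gene NEVLPcty was 0.319%. Genes called at least 2-fold higher at 2000 UMIs numbered 883 (CS against naive), 501 (NEVLP2 against naive) and 834 (NEVLPcty against NEVLP2), and those lower 474 (NEVLP2 against naive) and 1131 (NEVLP2 against CS). Centred on the median of all genes, 1356 were higher in NEVLP2 than in naive, 1237 higher and 1830 lower than in CS, and 871 lower in NEVLPcty than in NEVLP2. The last count was 883 by the mean CPM per cell and 935 with lineages weighted alike. At a minimum of 20 UMIs the counts were 176 higher and 189 lower in Ncr1 cells and 586 and 536 in Stab2 cells.

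The make-up of the proliferating cells also moved. With Mki67 or Top2a, Ncr1 cells were 20% in naive and 13.8% in CS, Stab2 cells 31.1% in CS and 19.5% in NEVLP2, and Cd3e and Flt3 cells 7.38% and 6.04% in NEVLP2. Assigned by number of marker genes, Flt3 cells were 2.56% (naive), 2.41% (CS), 4.26% (NEVLP2) and 1.89% (NEVLPcty), Clec4f cells 9.64% in CS and 1.89% in NEVLPcty, and Stab2 cells 28.9% and 52.8% there. Assigned by the share of each list detected, a rule added after seeing the data, Flt3 cells were 2.56% in naive and 1.89% in NEVLPcty, Clec4f cells 9.64% in CS and 1.89% in NEVLPcty, and Stab2 cells 33.7% and 56.6%. Clec4f cells were 10.9% in CS without the highest Scrublet scores. At 2000 UMIs Cd3e cells were 36.8% in NEVLP2 and Ncr1 cells 27.3% in NEVLPcty. The causes were not tested.

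Among single genes and lists 1567 values stayed, 180 moved and 1 reversed: the log2 ratio of Hpgds between NEVLP2 and CS was 0.132 with lineages weighted alike, against a gene at 0 UMIs in NEVLP2. No lineage had 20 proliferating cells in 2 libraries, so the planned comparison within a lineage was run at 10, a limit added after seeing the data. No paired analysis was possible because each group has 1 library. Depth limits rates of 0 and genes with few UMIs.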
